A study of Mus musculus with 10 samples.

Results

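The 9 genes described here encode transcription factors known for maintaining blood stem cells: Runx1, Gata2, Erg, Fli1, Lyl1, Meis1, Mecom, Hlf and Etv6. They were chosen by name from a deposited expression table of 52097 genes, and all 9 were found in it. Each sample held about 5000 blood stem cells from mouse marrow, sorted as Lin-Sca-1+c-Kit+CD48-CD150+. There were 5 knockout samples (titled Dhx16_CKO, genotype KO) and 5 control samples (titled Dhx16_fl, genotype WT). Dhx16 is a DEAH-box helicase of the spliceosome, and the titles point to a floxed gene and its conditional deletion, although the labels name no Cre driver, age, sex or strain. The comparison asks what happened to the messenger RNA of stem cells that lost Dhx16. Whether each sample came from a separate mouse is not stated, so p-values measure the spread between samples, which may be technical.

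Runx1, Gata2, Erg, Fli1 and Lyl1, with Tal1 and Lmo2, form the group often called the heptad, factors that bind together at many regulatory regions of blood stem and progenitor cells. Several of them also drive megakaryocyte genes, and a shift from GATA2 to its relative GATA1 accompanies entry into the erythroid and megakaryocyte lineages. Meis1 is a homeodomain partner of HOX proteins. Mecom, Hlf and Etv6 are each required, in mice, for stem cells to persist or to keep their resting state.

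The promoters of the members are shown first, because the factors are known to regulate one another. RefSeq promoter windows on GRCm38.p6 (mm10), from 250 bases before to 50 after an annotated start, were matched by symbol for 8 of the 9 genes (13 windows), all but Fli1. Each window was searched on both strands for the ETS family motif CCGGAA, the RUNX motif TGTGGT, the GATA factor motif AGATAA, the E-box motif CAGCTG bound by factors of the Lyl1 class, the MEIS motif TGACAG and the HLF motif TTACGTAA. No matches shared bases in the windows shown. The 4 windows below are those of the member that fell most (Runx1, from both of its annotated starts), of Hlf, which also fell under every scaling tried, and of Lyl1, the member that did not fall. Capitals mark the motif matches. The Runx1 distal window is chr16:92826025-92826324 and the proximal one chr16:92697280-92697579, both on the minus strand. The Hlf window is chr11:90390868-90391167 on the minus strand and the Lyl1 window chr8:84701207-84701506 on the plus strand.
Runx1 distal: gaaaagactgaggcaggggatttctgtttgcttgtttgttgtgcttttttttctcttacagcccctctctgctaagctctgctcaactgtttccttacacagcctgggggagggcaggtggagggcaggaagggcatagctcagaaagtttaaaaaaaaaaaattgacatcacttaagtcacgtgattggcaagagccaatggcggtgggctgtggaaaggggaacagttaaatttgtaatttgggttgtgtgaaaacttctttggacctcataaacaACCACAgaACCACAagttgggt
Runx1 proximal: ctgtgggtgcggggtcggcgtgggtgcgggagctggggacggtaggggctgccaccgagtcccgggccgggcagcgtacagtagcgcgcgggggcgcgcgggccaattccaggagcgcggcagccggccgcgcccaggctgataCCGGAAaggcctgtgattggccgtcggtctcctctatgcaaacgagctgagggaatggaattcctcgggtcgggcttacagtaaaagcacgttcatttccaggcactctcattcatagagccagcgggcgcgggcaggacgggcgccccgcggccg
Hlf: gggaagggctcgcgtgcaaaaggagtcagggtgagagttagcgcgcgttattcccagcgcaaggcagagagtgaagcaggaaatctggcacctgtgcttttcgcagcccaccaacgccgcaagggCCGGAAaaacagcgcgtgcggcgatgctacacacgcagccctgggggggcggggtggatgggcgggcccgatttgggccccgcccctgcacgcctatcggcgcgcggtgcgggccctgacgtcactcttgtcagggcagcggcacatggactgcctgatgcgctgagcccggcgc
Lyl1: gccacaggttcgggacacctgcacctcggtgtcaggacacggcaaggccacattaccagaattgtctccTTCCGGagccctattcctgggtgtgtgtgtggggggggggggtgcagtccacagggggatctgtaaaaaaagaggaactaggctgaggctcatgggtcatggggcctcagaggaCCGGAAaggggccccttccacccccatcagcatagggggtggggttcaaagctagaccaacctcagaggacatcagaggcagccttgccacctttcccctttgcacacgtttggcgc
The distal Runx1 window held 2 matches of the RUNX motif, the proximal one 1 match of the ETS motif, the Hlf window 1 and the Lyl1 window 2 matches of the ETS motif. The ETS motif was present in 4 of the 13 member windows and in 14.9% of 32851 promoter windows of the same length. The RUNX motif was present in 2 member windows and in 16.8% of all windows, the MEIS motif in 2 and in 19.2%, the GATA motif in 1 and in 11.2%, and the E-box in 1 and in 16.3%. The HLF motif was in 0 member windows and in 0.119% of all windows. The windows of Erg, which also fell under every scaling, are not shown and held 0 matches of the ETS and RUNX motifs. In 1 of them there were 2 matches of the MEIS motif and 1 of the GATA motif. Some windows of Gata2, Mecom and Erg, and the window of Etv6, held no match of any of the motifs. A match is a description of the letters, and no binding was measured.

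The table gave 1 value per gene and library, taken as FPKM (reads corrected for how long a transcript is and how deep a library is). Levels can thus be set side by side between genes. Between libraries the comparison also depends on the scaling, as the values below show. The library columns were named WT or CKO with numbers other than those of the sample titles, and are called here by their column names. Tests covered the 6913 genes that reached 10 FPKM in 5 or more libraries, and 52.7% of them were called changed (21.1% higher and 31.6% lower in knockout) at a Benjamini-Hochberg adjusted p under 0.05 in limma on log2 (FPKM + 1). The balance of these calls followed the scaling between libraries: 40.1% of called genes were higher with the values as deposited, 28.3% with totals made equal, 50.4% with median-of-ratios factors over the tested genes, 78.9% with such factors over all genes detected in every library, 80.6% with knockout libraries scaled to the authors' median fold change and 85.9% with upper-quartile factors. In the same order, the middle gene of all those tested changed by -0.12, -0.25, -0.03, 0.25, 0.29 and 0.36 (log2). The authors' deposited table calls 28.6% of 23405 genes at an adjusted p under 0.05 (17.1% higher and 11.5% lower). Dhx16 itself was at 9.49 ± 1.56 FPKM in knockout and 17.5 ± 3.81 FPKM in control libraries (SD, n = 5 each; log2 change -0.81, limma adjusted p = 0.000638), without overlap of the groups. It is not known if this value includes the deleted exons.

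The sort markers were present, with Kit at 123 FPKM and Ly6a, which encodes Sca-1, at 203 FPKM in knockout libraries, against 154 FPKM for Kit and 196 FPKM for Ly6a in control libraries. Slamf1, the gene of CD150, averaged 10.9 FPKM in knockout and 21.5 FPKM in control libraries, and Cd48 averaged 6.86 FPKM in knockout and 10.3 FPKM in control libraries. Transcripts of other cells were also abundant. A list of 6 granulocyte genes took 0.906% to 4.52% of all FPKM in knockout and 1.25% to 9.44% in control libraries, and 6 bone matrix genes took 0.504% to 5.25% in knockout and 0.405% to 8.03% in control libraries, and none of these 12 genes was called. All 6 granulocyte genes had lower means in knockout but varied widely between libraries (median log2 change of the list -1.32). Their summed level was 21675 ± 12348.3 FPKM in knockout and 40796.5 ± 29375.4 FPKM in control libraries (SD, n = 5 each). The bone matrix list had a median change of -0.040. Genes of other marker lists were called. All 8 erythroid markers were higher, with summed levels of 753.43 to 1177.23 FPKM in knockout and 119.81 to 396.58 FPKM in control libraries. Of 9 megakaryocyte and platelet markers all 7 tested were lower, 1 of them passing the filter through control libraries alone, with sums of 712.89 to 1399.91 FPKM in knockout and 1492.98 to 2292.91 FPKM in control libraries. Of 6 macrophage markers the 3 tested were lower, 2 of them passing the filter through control libraries alone, with sums of 10.57 to 27.52 FPKM in knockout and 117.3 to 271.82 FPKM in control libraries. No gene of these 5 lists was at 0 in any library. The part of these other cells in the results below was not tested, except where a value is given, and in bulk samples fewer cells of a type and less RNA per cell cannot be told apart.

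Of the 9 stem cell factors, 8 were lower in knockout, 0 were higher, and 1, Lyl1, was not called. Against this stands the 31.6% of all tested genes that were called lower. The falls ranged from 41.3% of the control mean that was left for Runx1 to 70.0% for Meis1. All 9 genes passed the filter through both groups, since each reached 10 FPKM in at least 9 of the 10 libraries. The median change over the 9 members was -0.70 on the log2 scale, with -0.12 over all tested genes. Knockout and control libraries did not overlap for 7 members, all of them lower in knockout, and such a separation was seen for 35% of all tested genes, 22.1% with knockout lower. Under the values as deposited and all 5 other scalings, 3 members (Runx1, Erg and Hlf) were called lower, where 8.42% of all tested genes were. No member was called higher under all 6, where 15.3% of tested genes were. In the authors' deposited table Runx1 and Erg were called lower, Lyl1 was called higher and the other 6 members were not called.

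**Figure D1:**
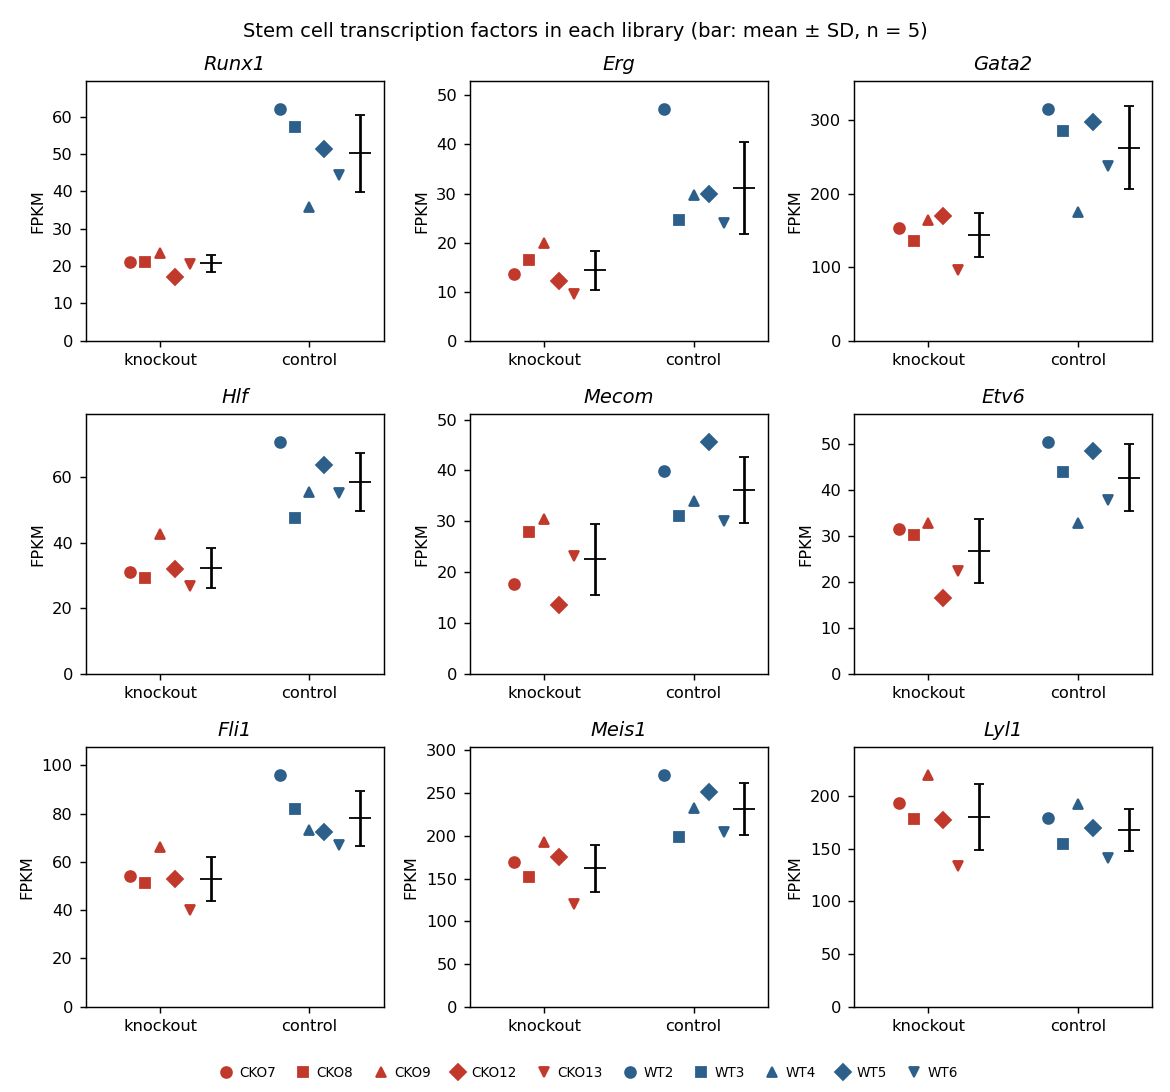
FPKM (vertical axis, from 0) of each of the 9 factors in the 5 knockout libraries (red, left) and the 5 control libraries (blue, right); each symbol is 1 library and bars show mean ± SD. Knockout libraries lie below control libraries without overlap in 7 panels, overlap slightly for Mecom and overlap fully for Lyl1.

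Runx1 (ENSMUSG00000022952, mm10 chromosome 16, 92601466 to 92826149, minus strand) encodes the DNA-binding subunit of core-binding factor, which is needed for blood stem cells to arise in the embryo and for platelet formation in the adult. It was at 21.12, 21.19, 23.62, 17.13 and 20.57 FPKM in the knockout libraries CKO7, CKO8, CKO9, CKO12 and CKO13, against 62.15, 57.24, 35.77, 51.37 and 44.53 FPKM in the control libraries WT2, WT3, WT4, WT5 and WT6. The knockout libraries lay close together and the lowest control library, WT4, was still above all of them. The mean was 20.7 ± 2.33 FPKM in knockout and 50.2 ± 10.4 FPKM in control libraries (SD, n = 5 each). On the log2 scale it changed by -1.22, standard error 0.15 (limma adjusted p = 1.32e-05), a lower value than that of all but 3.82% of the tested genes. In the authors' deposited table its log2 fold change was -0.93 (adjusted p = 4.12e-07). Runx1 can be transcribed from a distal and a proximal start, whose promoters are printed above. The annotation has 5 coding transcripts with 5 start positions, and the values are per gene, so they do not separate them.

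Gata2 (ENSMUSG00000015053, mm10 chromosome 6, 88193891 to 88207032, plus strand) encodes a zinc finger factor that keeps stem and progenitor cells alive and undifferentiated. Its level was 153.76, 135.49, 164.56, 169.54 and 96.55 FPKM in CKO7, CKO8, CKO9, CKO12 and CKO13, against 315.64, 285.88, 175.67, 298.36 and 237.66 FPKM in WT2 to WT6. CKO13 was the lowest of the knockout libraries and WT4 the lowest of the control libraries, and the groups came close at CKO12 and WT4 without overlap. Gata2 was the most abundant of the 9 factors in control libraries, at 263 ± 56.6 FPKM, and fell to 144 ± 29.6 FPKM in knockout libraries. Its log2 change was -0.86, standard error 0.18 (limma adjusted p = 0.00112). That call was lost with median-of-ratios factors over all genes detected in every library (change -0.48, adjusted p = 0.0773). It was also lost with upper-quartile factors (-0.37, 0.157) and the authors' scaling (-0.44, 0.0500365). With median-of-ratios factors over the tested genes it was kept (-0.77, limma adjusted p = 0.00500). In the authors' deposited table the log2 fold change of Gata2, -0.46, had an adjusted p of 0.0785.

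Erg and Fli1 are closely related ETS factors. Erg (ENSMUSG00000040732, mm10 chromosome 16, 95359169 to 95586593, minus strand) is required for self-renewal of adult mouse stem cells. It was at 13.57, 16.35, 19.84, 12.12 and 9.6 FPKM in the knockout libraries CKO7, CKO8, CKO9, CKO12 and CKO13, against 47.27, 24.66, 29.75, 29.84 and 23.99 FPKM in WT2 to WT6. WT2 stood well above the other control libraries, and the groups did not overlap. Erg averaged 14.3 ± 3.95 FPKM in knockout and 31.1 ± 9.45 FPKM in control libraries, a change of -1.06, standard error 0.20 (limma adjusted p = 0.000591). Without WT2 the change was -0.91 (adjusted p = 0.00125). Erg was the least abundant of the 9 factors in both groups, and the authors' deposited table gave it a log2 fold change of -0.68 (adjusted p = 0.00450).

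Fli1 (ENSMUSG00000016087, mm10 chromosome 9, 32422204 to 32542861, minus strand) activates megakaryocyte genes and is needed for platelet production. It had 54.32, 51.14, 66, 53.1 and 40.28 FPKM in CKO7, CKO8, CKO9, CKO12 and CKO13, against 96.07, 81.79, 73.09, 72.32 and 66.84 FPKM in WT2 to WT6. The highest knockout library, CKO9, and the lowest control library, WT6, differed by under 1 FPKM, so the groups barely separated. The mean was 53.0 ± 9.17 FPKM in knockout and 78.0 ± 11.4 FPKM in control libraries, a change of -0.56, standard error 0.14 (limma adjusted p = 0.00330). The call was lost under median-of-ratios factors over all genes detected in every library (-0.17, adjusted p = 0.313). It was also lost under upper-quartile factors (-0.069, 0.699) and the authors' scaling (-0.14, 0.394). Under median-of-ratios factors over the tested genes it was kept (-0.46, limma adjusted p = 0.00342). The authors' deposited table gave a log2 fold change of -0.13 (adjusted p = 0.583).

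Lyl1 (ENSMUSG00000034041, mm10 chromosome 8, 84701457 to 84704715, plus strand), a basic helix-loop-helix factor closely related to Tal1, was the exception. It was at 193.2, 178.36, 220.07, 177.19 and 133.65 FPKM in CKO7, CKO8, CKO9, CKO12 and CKO13, against 178.8, 154.85, 192.8, 170.09 and 141.26 FPKM in WT2 to WT6. The ranges overlapped over most of their extent, and the knockout libraries held both the highest and the lowest value. The mean was 180.5 ± 31.4 FPKM in knockout and 168 ± 20.1 FPKM in control libraries, a difference of 0.10, standard error 0.14 and a 95% interval of -0.20 to 0.40 (limma adjusted p = 0.585). Lyl1 was called higher with median-of-ratios factors over all genes detected in every library (0.48, adjusted p = 0.0127). It was also called higher with upper-quartile factors (0.59, 0.00335) and the authors' scaling (0.51, 0.00576), and in the authors' deposited table (0.52, 0.00483). With median-of-ratios factors over the tested genes Lyl1 was not called (0.19, limma adjusted p = 0.159). Its sign turned with equal totals (-0.046, adjusted p = 0.795).

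Meis1 (ENSMUSG00000020160, mm10 chromosome 11, 18879817 to 19018985, minus strand) encodes a homeodomain protein of the TALE class that binds DNA with HOX partners and limits oxidative stress in stem cells. It was at 169.5, 151.67, 193.12, 175.62 and 120.15 FPKM in CKO7, CKO8, CKO9, CKO12 and CKO13, against 271.25, 198.63, 232.09, 251.16 and 204.56 FPKM in WT2 to WT6. CKO13 was again the lowest library, and CKO9 came close to WT3 without overlap. The mean was 162 ± 27.7 FPKM in knockout and 232 ± 30.7 FPKM in control libraries, and the change of -0.52, standard error 0.14 (limma adjusted p = 0.00668) was the smallest of the 8 falls. The call was lost under median-of-ratios factors over all genes detected in every library (-0.14, adjusted p = 0.483). It was also lost under upper-quartile factors (-0.028, 0.888) and the authors' scaling (-0.10, 0.564). Under median-of-ratios factors over the tested genes it was kept (-0.43, limma adjusted p = 0.0100). The authors' deposited table gave -0.14 (adjusted p = 0.578). Exons of Meis1 overlap those of the antisense gene Gm16140 over 896 bases and of Gm37818 on the same strand over 1029 bases, and the strand setting of the counting is not given in the sources used here. Gm16140 averaged 9.26 FPKM in knockout and 20.7 FPKM in control libraries.

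Mecom (ENSMUSG00000027684, mm10 chromosome 3, 29951296 to 30548008, minus strand) encodes the zinc finger proteins MDS1-EVI1 and EVI1, which long-term stem cells of mice require. It was at 17.59, 27.83, 30.4, 13.44 and 23.13 FPKM in CKO7, CKO8, CKO9, CKO12 and CKO13, against 39.88, 31.03, 33.98, 45.61 and 30.1 FPKM in WT2 to WT6. It was the single falling member whose groups overlapped, since CKO9 was just above WT6, and it had the widest spread among knockout libraries relative to its mean. The mean was 22.5 ± 7.03 FPKM in knockout and 36.1 ± 6.54 FPKM in control libraries, a change of -0.70, standard error 0.20 (limma adjusted p = 0.00883). The call was lost under median-of-ratios factors over all genes detected in every library (-0.33, adjusted p = 0.130415). It was also lost under upper-quartile factors (-0.22, 0.288) and the authors' scaling (-0.30, 0.222). Narrow losses came without a filter on low genes (adjusted p = 0.0519) and with covariates for the bone matrix and granulocyte genes (-0.69, 0.0503). Under median-of-ratios factors over the tested genes it was kept (-0.61, limma adjusted p = 0.0120). The authors' deposited table gave a log2 fold change of -0.34 (adjusted p = 0.197).

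Hlf (ENSMUSG00000003949, mm10 chromosome 11, 90336536 to 90390895, minus strand), a PAR-type basic leucine zipper factor whose expression marks blood stem cells, was at 30.97, 29.2, 42.6, 31.86 and 26.72 FPKM in CKO7, CKO8, CKO9, CKO12 and CKO13, against 70.75, 47.39, 55.43, 63.81 and 55.13 FPKM in WT2 to WT6. CKO9 was above the other knockout libraries but below every control library. The mean was 32.3 ± 6.10 FPKM in knockout and 58.5 ± 8.98 FPKM in control libraries, a change of -0.84, standard error 0.14 (limma adjusted p = 0.000180). Hlf kept its call under every scaling, with a change of -0.98 to -0.36. The authors' deposited table gave -0.39 with an adjusted p of 0.0697, on the other side of the threshold.

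Etv6 (ENSMUSG00000030199, mm10 chromosome 6, 134035700 to 134270158, plus strand), an ETS family repressor that adult stem cells need to survive in the marrow, was at 31.49, 30.23, 32.79, 16.53 and 22.42 FPKM in CKO7, CKO8, CKO9, CKO12 and CKO13, against 50.52, 43.98, 32.84, 48.45 and 37.83 FPKM in WT2 to WT6. CKO9 and WT4 were almost equal, and the separation of the groups rests on that gap. The mean was 26.7 ± 6.97 FPKM in knockout and 42.7 ± 7.36 FPKM in control libraries, a change of -0.68, standard error 0.18 (limma adjusted p = 0.00547). The call was lost under median-of-ratios factors over all genes detected in every library (-0.31, adjusted p = 0.150291). It was also lost under upper-quartile factors (-0.20, 0.324) and the authors' scaling (-0.28, 0.208). Under median-of-ratios factors over the tested genes it was kept (-0.59, limma adjusted p = 0.0111). The authors' deposited table gave -0.27 (adjusted p = 0.296).

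**Figure D2:**
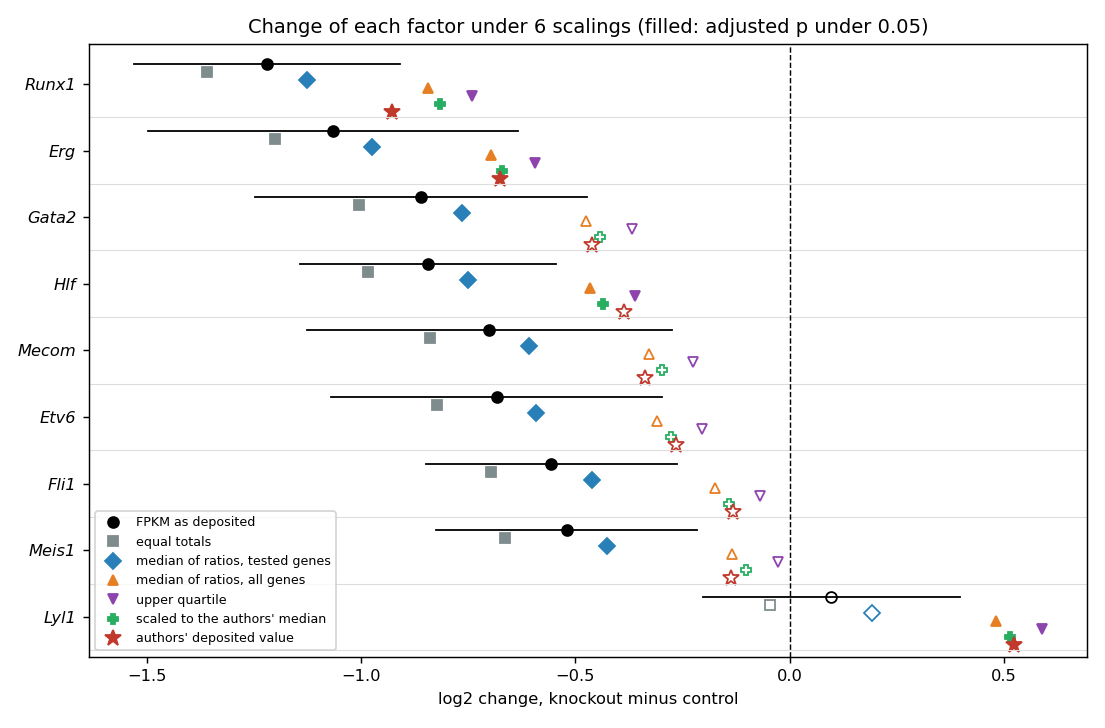
Log2 change (knockout minus control, horizontal axis) of each factor with the values as deposited (black, with its 95% interval), under 5 other scalings between libraries and in the authors' deposited table (star); filled symbols have an adjusted p under 0.05. The scalings shift all 9 factors together and leave their order nearly as it was, so Runx1 and Erg stay lowest and Lyl1 stays highest, with signs kept except that of Lyl1 under equal totals.

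The order of the factors by level differed between the groups. In knockout libraries the means ran from Lyl1 over Meis1, Gata2, Fli1, Hlf, Etv6, Mecom and Runx1 down to Erg. In control libraries they ran from Gata2 over Meis1, Lyl1, Fli1, Hlf, Runx1, Etv6 and Mecom down to Erg. Among knockout libraries the ranges of every pair of neighbours in that order overlapped except for Gata2 and Fli1. Within each knockout library, however, Lyl1 was above Meis1, Meis1 above Gata2, Fli1 above Hlf and Runx1 above Erg. The order of the other overlapping neighbours was not the same in every knockout library. Among control libraries the neighbours Meis1 and Lyl1, and Lyl1 and Fli1, did not overlap, and the other neighbours did. Of these others, Fli1 was above Hlf and Runx1 above Etv6 within each control library. Runx1 was eighth in knockout and sixth in control libraries. Its mean exceeded that of 40.3% of the tested genes in knockout and of 71.3% in control libraries, the largest such shift of the 9 factors. For Erg the shares were 23.6% in knockout and 53.0% in control, and for Lyl1 they were 91.8% in knockout and 92.7% in control.

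Ratios of 2 genes within a library do not depend on the scaling between libraries, apart from the pseudocount, and were compared for pairs of related or interacting factors by two-sided exact permutation tests over 5 against 5 libraries, whose smallest possible p is 0.00794. The pair of Hlf with its relative Tef was not tested because Tef was below the filter. Of the 6 pairs described here, 4 differed at a Benjamini-Hochberg adjusted p under 0.05, with p-values adjusted over the 7 pairs tested. The ratio of Gata2 to Gata1, the factor that takes over in erythroid and megakaryocyte cells, was 2.13 ± 0.588 in knockout and 4.88 ± 1.44 in control libraries (SD, n = 5 each; log2 difference -1.17, exact permutation p = 0.0159, adjusted p = 0.0278). Gata1 itself was at 68.7 ± 8.32 FPKM in knockout and 55.2 ± 6.63 FPKM in control libraries (log2 change 0.31, limma adjusted p = 0.0430), a call lost without any 1 of CKO7, CKO8, CKO12, CKO13, WT3, WT5 or WT6 (adjusted p = 0.0592 to 0.116), and with equal totals (adjusted p = 0.287). Under 5 of the 6 scalings, the values as deposited included, Gata1 was called higher, with a change of up to 0.80. The authors' deposited table gave Gata1 a log2 fold change of 0.75 (adjusted p = 1.63e-07). The library WT4 had the lowest control ratio of Gata2 to Gata1, 2.81, just below the highest knockout ratio, 2.92 in CKO9.

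Runx1 fell relative to Cbfb, which encodes the partner subunit of core-binding factor. The ratio was 1.52 ± 0.415 in knockout and 2.71 ± 0.859 in control libraries (log2 difference -0.80, exact permutation p = 0.0159, adjusted p = 0.0278), with CKO9 at 2.25 inside the control range. Cbfb was at 14.1 ± 2.68 FPKM in knockout and 19.1 ± 2.68 FPKM in control libraries (log2 change -0.42, limma adjusted p = 0.0278), a call lost without any 1 of CKO9, CKO12, WT2, WT4, WT5 or WT6 (adjusted p = 0.0502 to 0.0721), and its sign turned under upper-quartile factors (0.044). Erg fell relative to Fli1, with ratios of 0.267 ± 0.0404 in knockout and 0.394 ± 0.0706 in control libraries (log2 difference -0.51, exact permutation p = 0.0238, adjusted p = 0.0333). Erg was thus lower relative to Fli1 with every library included, a call lost without some single libraries, as given below.

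The ratio of Lyl1 to Tal1 went the other way and was higher in knockout without overlap, at 14.6 ± 2.04, against 9.68 ± 2.21 in control libraries (log2 difference 0.58, exact permutation p = 0.00794, adjusted p = 0.0278). Tal1, at 12.5 ± 2.54 FPKM in knockout and 17.8 ± 3.74 FPKM in control libraries, was called lower with the values as deposited (log2 change -0.48, limma adjusted p = 0.0203), but not under 3 of the other scalings nor without WT2 or CKO13 (adjusted p = 0.0570 and 0.0571).

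The ratios of Mecom to its relative Prdm16 (2.41 ± 0.346 in knockout, 2.23 ± 0.472 in control) and of Etv6 to Fli1 (0.507 ± 0.115 in knockout, 0.549762 ± 0.0799 in control) were not called (log2 differences 0.085 and -0.13, exact permutation p = 0.611 and 0.603, adjusted p = 0.611 for both). With 9 libraries the adjusted p of these 4 called ratios came to 0.0556 when CKO7, CKO12 or CKO13 was left out. The same value was reached for Erg to Fli1 without WT2, WT4, WT5 or WT6 and for Runx1 to Cbfb without CKO8. The directions of these 4 ratios held without any 1 library, and for Lyl1 to Tal1 the groups also stayed apart. With so few libraries the exact test can take only a few p-values. A call lost in this way therefore does not show by itself that a ratio rests on the library left out.

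**Figure D3:**
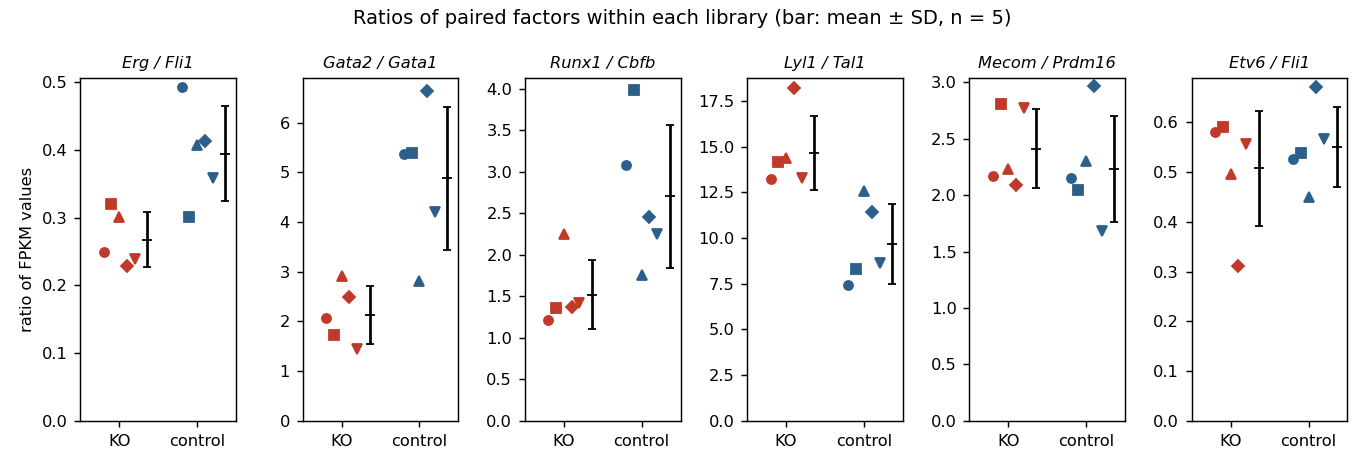
Ratio of the FPKM values of 2 genes within each library (vertical axes, from 0) for 6 pairs, in knockout (red, left) and control (blue, right) libraries, with mean ± SD. Lyl1 over Tal1 is higher in knockout without overlap, Gata2 over Gata1, Runx1 over Cbfb and Erg over Fli1 are lower in knockout with some overlap, and the last 2 pairs overlap.

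Within each group the factors tended to be high or low in the same libraries. In CKO9 all 9 factors were above their knockout mean (median deviation 0.33 on the log2 scale), and in CKO13 8 of the 9 were below it (median deviation -0.37). In WT2 all 9 were above their control mean (median deviation 0.28), and in WT6 all 9 were below it (median deviation -0.17). The levels of all tested genes shifted between libraries too. Their median on the log2 (FPKM + 1) scale was 4.70, 4.82, 4.88, 4.67 and 4.72 in CKO7, CKO8, CKO9, CKO12 and CKO13, against 5.04, 4.85, 4.97, 4.82 and 4.80 in WT2 to WT6, so it too was highest in CKO9 and WT2 of their groups and lowest in CKO12 and WT6. The summed stem cell sort and identity genes likewise were lowest in CKO13 and highest in CKO9 and WT2 of their groups. CKO13 and WT6 had the largest share of bone matrix transcripts in their groups, at 5.25% of all FPKM in CKO13 and 8.03% in WT6. CKO12, with the second largest knockout share, 2.92%, also had the second lowest knockout median deviation, -0.0081. The remaining libraries did not follow that order. CKO9, where the factors were highest among knockout libraries, had 0.984%, above CKO7 with 0.717% and CKO8 with 0.504%. WT2, where the factors were highest among control libraries, had the second largest control share, 2.04%. WT3, with the smallest, 0.405%, had a median deviation of -0.10. Granulocyte genes took 4.52% in CKO8, 9.44% in WT3 and 8.55% in WT5, libraries in which the median deviation of the factors was 0.0014, -0.10 and 0.13. Scores, the mean log2 (FPKM + 1) of the bone matrix genes and of the granulocyte genes, were then added as covariates. With them 7 of the 9 factors were called lower, as were 29.2% of all tested genes, and Lyl1 was at -0.030 (adjusted p = 0.889). Without WT6 and WT3, the libraries highest in these scores, 8 were called lower, as were 29.6% of all tested genes, and Lyl1 was at -0.017 (adjusted p = 0.942). WT4 departed from the shared pattern, with Runx1, Gata2 and Etv6 0.45, 0.55 and 0.35 below their control mean on the log2 scale and Lyl1 0.21 above it. CKO12 did so too, where Mecom and Etv6 were 0.64 and 0.62 below their knockout mean and Gata2 was 0.26 above it.

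**Figure D4:**
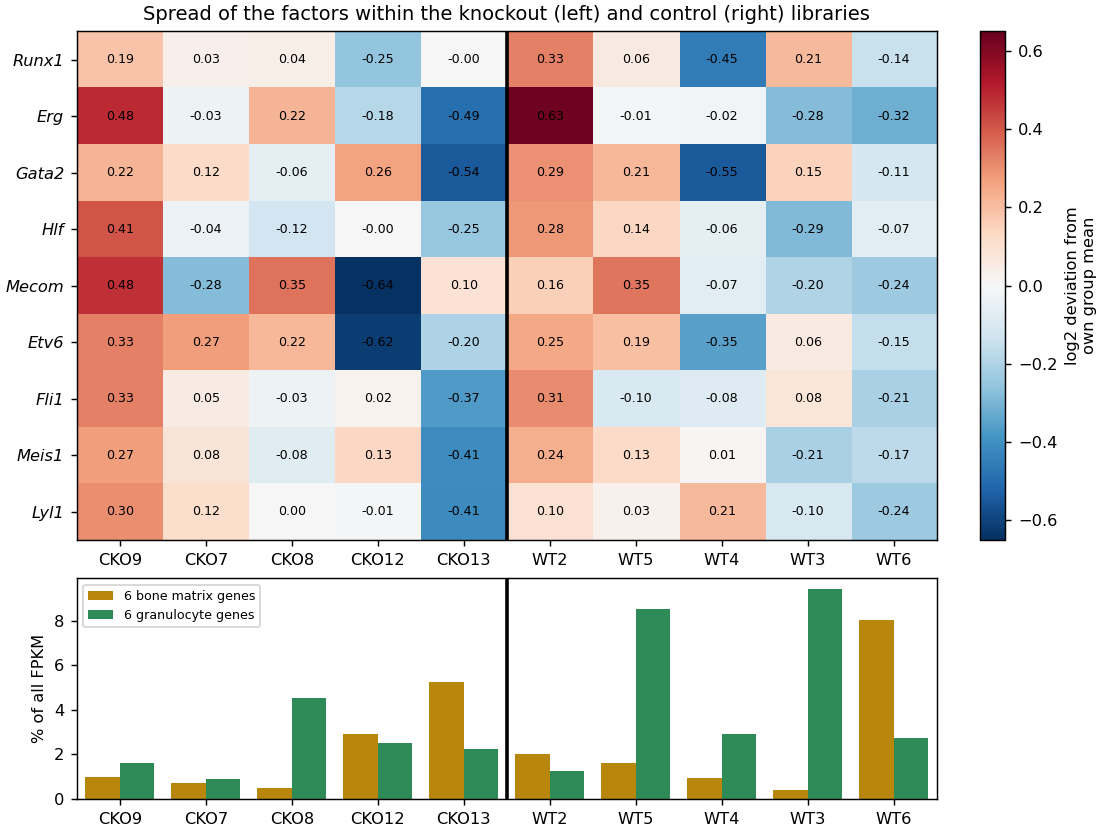
Top: deviation of each factor (rows) from the mean of its own group on the log2 scale in each knockout (left) and control (right) library, ordered by the median deviation. Bottom: share of all FPKM taken by 6 bone matrix genes and 6 granulocyte genes in the same libraries. CKO13 and WT6, at the low end of their groups, have the most bone matrix transcripts. CKO12 is next to CKO13 in both orders, and the remaining libraries do not follow that order.

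The partners and relatives of the factors were read from 5 lists. Their counts stand against 31.6% of all tested genes called lower and 21.1% called higher, and 8.42% called lower under all 6 scalings. Among the genes named below, Lmo4, Prdm16, Pbxip1, Ikzf2 and Gp1bb each reached 10 FPKM in 1 knockout and 5 control libraries. Their control libraries alone would have met the filter, which favours genes that are lower in knockout. Of 16 heptad partners and cofactors, 13 were tested, of which 9 were lower and 0 higher, with a median change of -0.45, and 2 were lower under all 6 scalings. Lmo2, the bridging LIM protein that links GATA and TAL1 complexes, was the most abundant, at 644 FPKM in knockout and 872 FPKM in control libraries (log2 change -0.45, limma adjusted p = 0.0344), but kept its call under 1 of the 5 other scalings and in 13 of 24 alternatives, and its change reached 0.040 under another scaling. The largest falls were those of Cbfa2t3, a corepressor that joins the TAL1 complex, to 11.7 ± 2.33 FPKM in knockout against 23.7 ± 4.61 FPKM in control libraries (-0.97, adjusted p = 0.000175), and of Lmo4, to 7.82 ± 2.18 FPKM in knockout against 15.7 ± 2.66 FPKM in control libraries (-0.94, adjusted p = 0.000341). Both kept their call under every scaling. Spi1, which encodes PU.1 and favours myeloid and lymphoid fates, was at 68.6 FPKM in knockout and 109 FPKM in control libraries (-0.65, adjusted p = 0.00188), a call kept under 2 of the 5 other scalings. The erythroid and megakaryocyte repressor gene Gfi1b was at 89.9 FPKM in knockout and 72.2 FPKM in control libraries and was not called (0.34, adjusted p = 0.0827), although 4 of the 5 other scalings called it higher.

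Of 19 paralogs from the families of the members, 10 were tested, of which 8 were lower and 1, Gata1, was higher, with a median change of -0.60. Under all 6 scalings 1 was lower and 0 were higher. Prdm16, a relative of Mecom that stem cells require, fell to 9.29 ± 2.71 FPKM in knockout against 16.3 ± 1.73 FPKM in control libraries (log2 change -0.79, limma adjusted p = 0.00105), a call that was lost under upper-quartile factors and the authors' scaling (adjusted p = 0.0722 and 0.0528). The ETS repressor gene Etv3 fell to 11.6 ± 1.24 FPKM in knockout against 22.2 ± 5.14 FPKM in control libraries (-0.86, adjusted p = 0.000282), also under every scaling. Runx2 and Gata3, called lower as well, passed the filter through control libraries alone, so a difference was built into their being tested.

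Of 12 HOX and TALE partners of Meis1, 7 were tested, of which 6 were lower and 0 higher, with a median change of -0.75, and 3 were lower under all 6 scalings. The largest of the falls given here was that of Pbxip1, to 9.48 ± 1.72 FPKM in knockout against 25.5 ± 6.34 FPKM in control libraries (log2 change -1.32, limma adjusted p = 1.97e-05). Hoxa9, a main HOX gene of stem and progenitor cells, was at 32.9 FPKM in knockout and 43.8 FPKM in control libraries (-0.41, adjusted p = 0.00897), a call kept under 2 of the 5 other scalings, with a change of up to 0.076 under the rest. Hoxa7 and Hoxa10 were also called lower but passed the filter through control libraries alone.

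Of 20 other stem and progenitor transcription factors, 11 were tested, of which 9 were lower and 2 higher, with a median change of -0.59. Under all 6 scalings 1 was lower and 1 higher. Klf1, the master factor of erythroid cells, which is also among the erythroid markers, rose to 111 ± 17.6 FPKM in knockout against 20.2 ± 12.1 FPKM in control libraries (log2 change 2.56, limma adjusted p = 0.000296). Ikzf1, a lymphoid and erythroid regulator, was at 76.9 ± 13.1 FPKM in knockout and 55.8 ± 7.09 FPKM in control libraries (0.45, adjusted p = 0.0134), a call lost with equal totals (adjusted p = 0.118). Ikzf2 fell to 7.92 ± 1.47 FPKM in knockout against 14.7 ± 2.54 FPKM in control libraries (-0.82, adjusted p = 0.000423). Nkx2-3 was at 27.3 ± 14.7 FPKM in knockout and 45.6 ± 8.70 FPKM in control libraries (-0.82, adjusted p = 0.0252), and its call was lost under 4 of the 5 other scalings (adjusted p = 0.0627 to 0.385) and without any 1 of CKO7, CKO8, CKO9, CKO13, WT2, WT3 or WT6 (adjusted p = 0.0528 to 0.0589).

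Of 23 genes known as targets of these factors in blood cells, 18 were tested, of which 14 were lower and 0 higher, with a median change of -0.87, and 9 were lower under all 6 scalings. These counts and the median include Alox12 and Itga6, which passed the filter through control libraries alone and so had to differ. Many are genes of megakaryocytes and platelets, and 6 of the 23 are also among the megakaryocyte markers whose summed level was lower in every knockout library. The platelet receptor gene Gp1bb fell to 9.34 ± 3.88 FPKM in knockout against 45.7 ± 6.87 FPKM in control libraries (log2 change -2.23, limma adjusted p = 2.39e-06). Alox12, a RUNX1 target in human platelets, fell to 2.81 ± 1.60 FPKM in knockout against 23.7 ± 8.83 FPKM in control libraries (-2.70, adjusted p = 7.97e-05). Kit and Cd34, genes of stem and progenitor surface proteins, were not called (-0.36 and 0.18, adjusted p = 0.144 and 0.437), although Cd34 was called higher under 3 of the 5 other scalings.

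**Figure D5:**
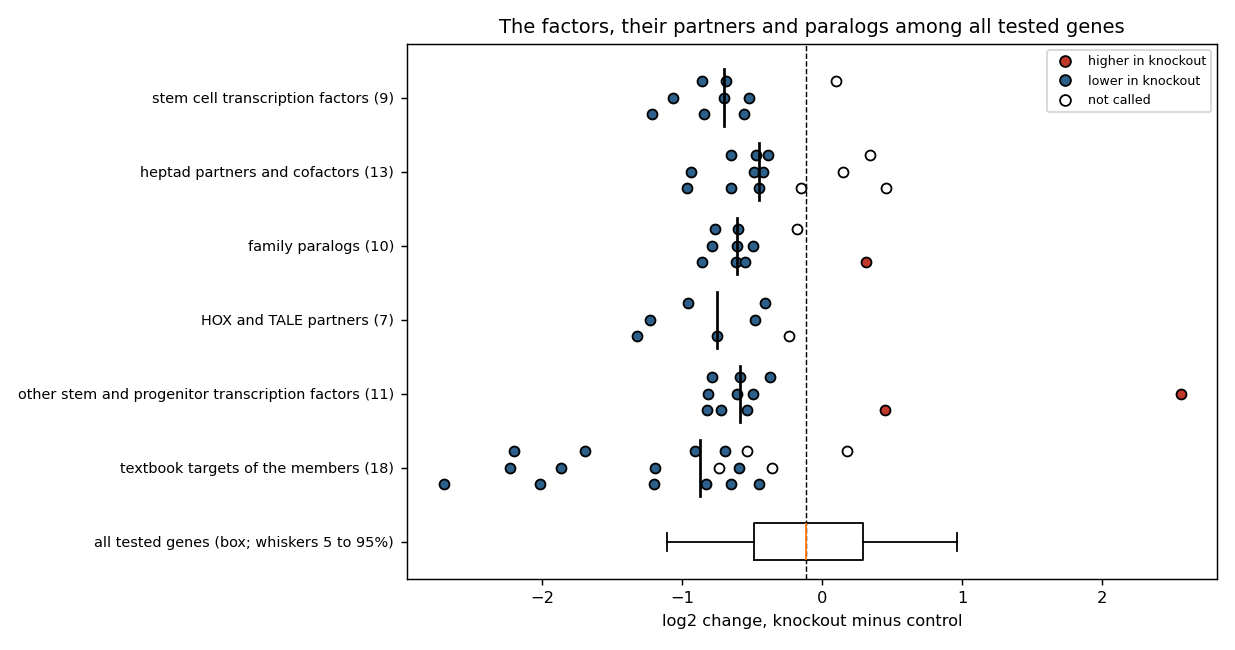
Log2 change (knockout minus control, horizontal axis) of the tested genes of each list, as points coloured by their call, with the list median as a bar, above a box plot of all 6913 tested genes. The medians of the lists lie at -0.45 to -0.87, below the dashed line at -0.12 that marks the median of all tested genes.

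The protein-coding genes whose profile over the 10 libraries came closest to that of a factor were found by the root-mean-square difference of log2 values centred on the control mean, for the 6 factors that deviated from that mean by over 0.5. They are given as a description of these libraries. For Runx1 they were Mmrn1 (0.18), which encodes a protein of platelets and endothelial cells, and Zeb2 (0.18), a zinc finger repressor of blood and nerve cells. For Gata2 they were Atp2a3 (0.10), a calcium pump of the endoplasmic reticulum, and Sh2b1 (0.13), an adaptor protein. For Erg they were Ddx17 (0.15), an RNA helicase, and Cd151 (0.18), a tetraspanin. For Hlf they were Traf3ip3 (0.094) and Adamts10 (0.10), for Mecom Zdhhc17 (0.14) and Zfp715 (0.16), and for Etv6 Ubr2 (0.10) and Tmx4 (0.11).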

How the data were processed

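RNA of sorted stem cells from 5 knockout and 5 control samples was amplified with the Smart-Seq V4 kit and sequenced on an Illumina HiSeq, per the labels. The submitters' processing notes list Bowtie 0.12.9, Cufflinks 2.1.1, HTSeq and mm10, without roles. The deposited library columns name no unit and were taken as FPKM from their values. The authors also deposited DESeq2 results: mean normalized counts (a signal column), log2 fold changes with standard errors, a Wald score, and p-value and adjusted p-value columns. Each library column was assigned to a group by its name. All 52097 gene identifiers matched GENCODE mouse release 21.

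The 6913 genes reaching 10 FPKM in 5 or more libraries were fitted by limma 3.58.1 (trend and robust options, R 4.3.3) on log2 (FPKM + 1) without covariates, and p-values were adjusted over all of them. The fit was tested on simulated data. Members, lists, pairs and named genes (all members, all pair genes, the 2 largest called rises and falls of each list, the 2 nearest profiles, and other list genes picked after their values were seen) were chosen with earlier results of these data known. Some of these genes, and 1 of the 7 pairs tested, are not reported here.

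Depth per library was not given. In short single-exon genes the product of FPKM and length began abruptly at 76 to 126, which, read as 1 fragment, would give about 7940000 to 12500000 fragments in knockout and 8000000 to 13160000 in control libraries. The authors' mean normalized counts of the members were 661 to 8084.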

Additional observations from a re-analysis of the deposited data

Results flagged for a closer look

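Erg in the control library WT2, at 47.27 FPKM, lay apart from the other control libraries, the nearest of which was at 29.84 FPKM. The gap was 0.749 of the range of the group, above the critical value of 0.71 for 5 samples. Cbfb in the control library WT3, at 14.37 FPKM, lay below the other control libraries, the nearest at 19.81 FPKM, with a gap of 0.838 of the range. These were 2 of 28 groups examined (14 genes in each genotype), and chance alone flags about 1 in 20.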

How the results depend on the processing

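Of 216 values of the 9 members under alternatives, 193 kept their direction and their side of the threshold, 17 lost a call, 3 gained one and 3 changed sign. The median-of-ratios factors over the tested genes were added after seeing the data. Scaling mattered most. With median-of-ratios factors over all genes detected in every library, upper-quartile factors and the authors' scaling, 3 members were called lower and 1 higher in each. Tested genes called higher were 3053, 3560 and 3095 and lower 816, 582 and 745, against 1460 and 2182 as deposited. With median-of-ratios factors over the tested genes, 8 members were called lower and 0 higher. The filters of 1 FPKM, 20 FPKM and none gave 4890, 1263 and 4523 genes called lower. Covariates for bone matrix and granulocyte scores gave 954 genes called higher. Lyl1 changed sign with equal totals (-0.046), without the libraries highest in these scores (-0.017) and with the covariates (-0.030), and Cbfb with upper-quartile factors (0.044). The Mecom to Prdm16 ratio changed sign with a pseudocount of 5 (-0.013), without those libraries (-0.071) and over single libraries left out (-0.0067 to 0.19, negative without WT6). The Etv6 to Fli1 ratio did so over single libraries left out (-0.20 to 0.031, positive without CKO12). The causes were not tested. Leaving out 1 library kept 8 members lower and 0 higher, with 1236 to 1608 genes higher and 1894 to 2231 lower. No paired analysis was possible because the library columns carry no numbers shared between the groups or with the sample titles. Library depth was not given, so no counting intervals are printed.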

Other observations

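Markers of 3 further cell types were examined. Of 5 B lymphocyte markers 1 was tested, Cd79b, at 22.5 FPKM in knockout and 34.9 FPKM in control libraries (log2 change -0.61, limma adjusted p = 0.00657; the call was lost under 3 of the 5 other scalings, with a change up to -0.13 and an adjusted p up to 0.486). Of 5 T and NK lymphocyte markers 1 was tested, Nkg7, at 99.8 FPKM in knockout and 93.3 FPKM in control libraries (not called, adjusted p = 0.630064), while Cd3e averaged 0.154 FPKM in knockout and 0.314 FPKM in control libraries. Of 4 endothelial markers 2 were tested and both were lower, 1 of them under all 6 scalings, and Pecam1, a gene that stem cells and platelets also express, was at 14.3 FPKM in knockout and 36.7 FPKM in control libraries (-1.30, adjusted p = 1.03e-05). Cdh5, which defines endothelium, averaged 0.214 FPKM in knockout and 0.460 FPKM in control libraries. Erg and Fli1 are also expressed by endothelial cells, and the part of such cells in their values was not tested. Of 10 stem cell sort and identity genes 7 were tested, of which 5 were lower and 0 higher, with a median change of -0.63, and 2 were lower under all 6 scalings. Procr, the gene of the endothelial protein C receptor, was at 26.2 FPKM in knockout and 41.2 FPKM in control libraries (-0.63, adjusted p = 0.00466), a call lost under 3 of the 5 other scalings (change up to -0.15, adjusted p up to 0.426).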
